A study of Mus musculus with 18 samples.

Results

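The genes described here are 38 protein-coding genes of nucleolar ribosome biogenesis, chosen by name. No measured value enters the rule, although the list was drawn up with earlier results of these data known. They were found in the deposited count table by matching Ensembl identifiers to symbols. All 38 were matched, out of 55487 genes in the table, and all 38 passed the filters on low counts. The RNA came from T cells sorted by flow cytometry from mouse spleen and then stimulated for 72 h in the presence of IL-2 (10 ng/ml) by anti-CD3 bound to the plate and by anti-CD28, at 2 µg/ml each. Libraries were made from 500 ng of total RNA with a kit that reads the 3' end of messenger RNA, with unique molecular identifiers, so that each transcript is counted near its end only. There were 6 groups of 3 libraries. The CD8 WT, CD4 WT and Treg WT groups carry the strain label Foxp3 YFP/cre, and the CD8 KO, CD4 KO and Treg KO groups the label Foxp3 YFP/cre Ebi3 -/-. All 6 groups therefore share the YFP/cre allele of Foxp3, and WT refers to Ebi3 alone. Foxp3 is the lineage factor of regulatory T cells (Treg). Ebi3 encodes a cytokine subunit. The labels give neither age nor sex of the mice, and they do not say whether the CD4 sort left out Foxp3-positive cells or whether each replicate had its own animal or culture. The p-values therefore measure the spread between these libraries, which may be technical.

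Ribosomes are assembled in the nucleolus. RNA polymerase I transcribes a long precursor of the ribosomal RNAs, small nucleolar ribonucleoproteins (snoRNPs) guide its chemical modification, and large sets of assembly factors fold and cut it into the RNAs of the small and large subunits. Box C/D snoRNPs, which hold fibrillarin (Fbl), Nop56 and Nop58, direct 2'-O-methylation, and box H/ACA snoRNPs, which hold dyskerin (Dkc1), Nhp2, Nop10 and Gar1, direct pseudouridylation. T cells that are stimulated through their antigen receptor enlarge their nucleoli before they divide, and the transcription factor MYC is known to act on many of these genes. The 38 genes were arranged by role, with 3 nucleolar chaperones (Ncl, Npm1 and Npm3), 3 box C/D proteins, 4 box H/ACA proteins with their chaperone Nolc1, 2 subunits of RNA polymerase I (Polr1a and Polr1b), 14 factors of the small subunit and 11 factors of the large subunit.

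MYC binds the E-box CACGTG, so the letters of this motif are shown where they lie next to the start sites of these genes. RefSeq promoter windows (GRCm38.p6, 250 bases before to 50 bases after the start site) were at hand for 33 of the 38 genes. The E-box, which reads the same on both strands, stood in 6 of these 33 genes (18.2%), in 18 of 102 other genes of the pathway (17.6%) and in 2187 of all 27025 genes with a window (8.09%). The 6 genes were Mybbp1a at chr11:72441347-72441376 (+), Nop2 at chr6:125131811-125131840 (+), Pes1 at chr11:3963965-3963994 (+), Utp20 at chr10:88826765-88826794 (-), Utp4 at chr8:106893643-106893672 (+) and Wdr43 at chr17:71616220-71616249 (+). Each sequence is printed 5′ to 3′ on the strand of the gene, and capitals mark the E-box.
Mybbp1a: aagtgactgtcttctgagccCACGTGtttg
Nop2: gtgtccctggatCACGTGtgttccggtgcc
Pes1: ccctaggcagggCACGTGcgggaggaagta
Utp20: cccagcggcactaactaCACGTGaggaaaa
Utp4: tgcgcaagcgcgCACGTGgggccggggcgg
Wdr43: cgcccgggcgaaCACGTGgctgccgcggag
In 5 of the 6 genes the E-box lies just after the start site, and in Nop2 it lies before it, with its first base at position -60. The motif CCGGAAG, a core recognised by factors of the ETS family, was searched on both strands and stood in 10 of the 33 genes (30.3%), in 46 of the 102 other pathway genes (45.1%) and in 9.93% of all genes with a window. These are matches of letters, and no binding was measured. All 6 genes were higher in CD8 WT than in CD4 WT cells by sign, as were 35 of the 38. Mybbp1a, Pes1 and Utp20 were called, among 7 of the 38 called higher (2.25% of all genes). In the same comparison the 8 tested genes of the MYC family, Myc among them, were all lower by sign (median log2 fold change -0.29). A part of MYC in the values of these genes was not tested.

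The 6 Treg libraries were shallower (841892 to 1089003 counts each) than the 12 CD4 and CD8 libraries (1358671 to 2255950). Levels are given in CPM, a gene's count over the library size scaled by the trimmed mean of M-values, and 3 counts in a library correspond to 1.33 to 3.56 CPM. The label Treg was not borne out by markers. Foxp3 stood at 0 to 1.296 CPM in all 18 libraries, and each Treg library held both Cd4 (34.4 to 68 CPM) and Cd8a (24.9 to 46.7 CPM), whereas Cd8a was at most 1.687 CPM in CD4 and Cd4 at most 0.5092 CPM in CD8 libraries. Whether a 3' tag counts transcripts of the YFP/cre allele of Foxp3, which all groups carry, is not known from the labels. Treg is used below only as the name of 6 libraries. Sampling noise alone could account for the differences within 2 Treg pairs (replicates 1 and 2 of WT, 1 and 3 of KO), and each pair was counted as 1 sample, which leaves n = 2 per Treg group. Of the 9 pairs across Treg WT and Treg KO 4 also showed no difference beyond sampling noise. Markers of B cells (16 genes) were high in every library, with summed levels from 5065 to 12070 CPM. Ebi3 was counted in the KO libraries too, at 24.2 to 34 CPM in CD8 KO against 28 to 29.7 in CD8 WT, and at 20.6 to 26.1 in CD4 KO against 38.7 to 60.5 in CD4 WT. Which part of the gene was deleted is not stated, so a 3' tag may check nothing about the genotype. Fewer cells of a type and less RNA per cell cannot be told apart in such bulk libraries.

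The 38 genes together took up 0.7063 to 1.157% of all counts. Ncl, the abundant nucleolar RNA-binding protein nucleolin, and Npm1, the histone and ribosome chaperone nucleophosmin, gave the highest tag counts, with 1644 to 2444 and 1073 to 2608 CPM over the 18 libraries. On GRCm38, Ncl lies at chr1:86344719-86359400 (-), Npm1 at chr11:33152287-33163206 (-), Nop56 at chr2:130274430-130279313 (+), Nop58 at chr1:59684971-59719044 (+), Dkc1 at chrX:75095854-75109777 (+) and Rrp12 at chr19:41862851-41896173 (-). Polr1b and Nob1, the nuclease that makes the last cut of the small subunit RNA, gave the lowest, from 14.1 to 33.7 CPM and from 14.1 to 31.5 CPM. The summed level of the 38 genes was 11380, 10720 and 9800 CPM in CD8 WT, 8964, 9957 and 9397 in CD8 KO, 8097, 9059 and 8718 in CD4 WT, and 10190, 8865 and 9780 in CD4 KO. It was 8517, 8222 and 7351 CPM in Treg WT and 8200, 7362 and 7852 in Treg KO. CD8 WT thus stood high, CD4 WT and the Treg libraries low, and the KO groups of CD8 and CD4 between, with overlap. Ncl and Npm1 weigh most in these sums. In CD4 WT and Treg WT the chaperones gave 3801 to 4090 and 3083 to 3678 CPM. Box H/ACA genes gave 1064 to 1285 and 912.7 to 992.7 CPM. Ranges of small subunit (1285 to 1528 and 1323 to 1484) and large subunit factors (1134 to 1324 and 1156 to 1293) overlapped. Box C/D proteins gave 692.9 to 761.1 and 753.1 to 959 CPM. Polymerase subunits gave 103.5 to 108.5 and 123.3 to 181.4 CPM.

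**Figure D1:**
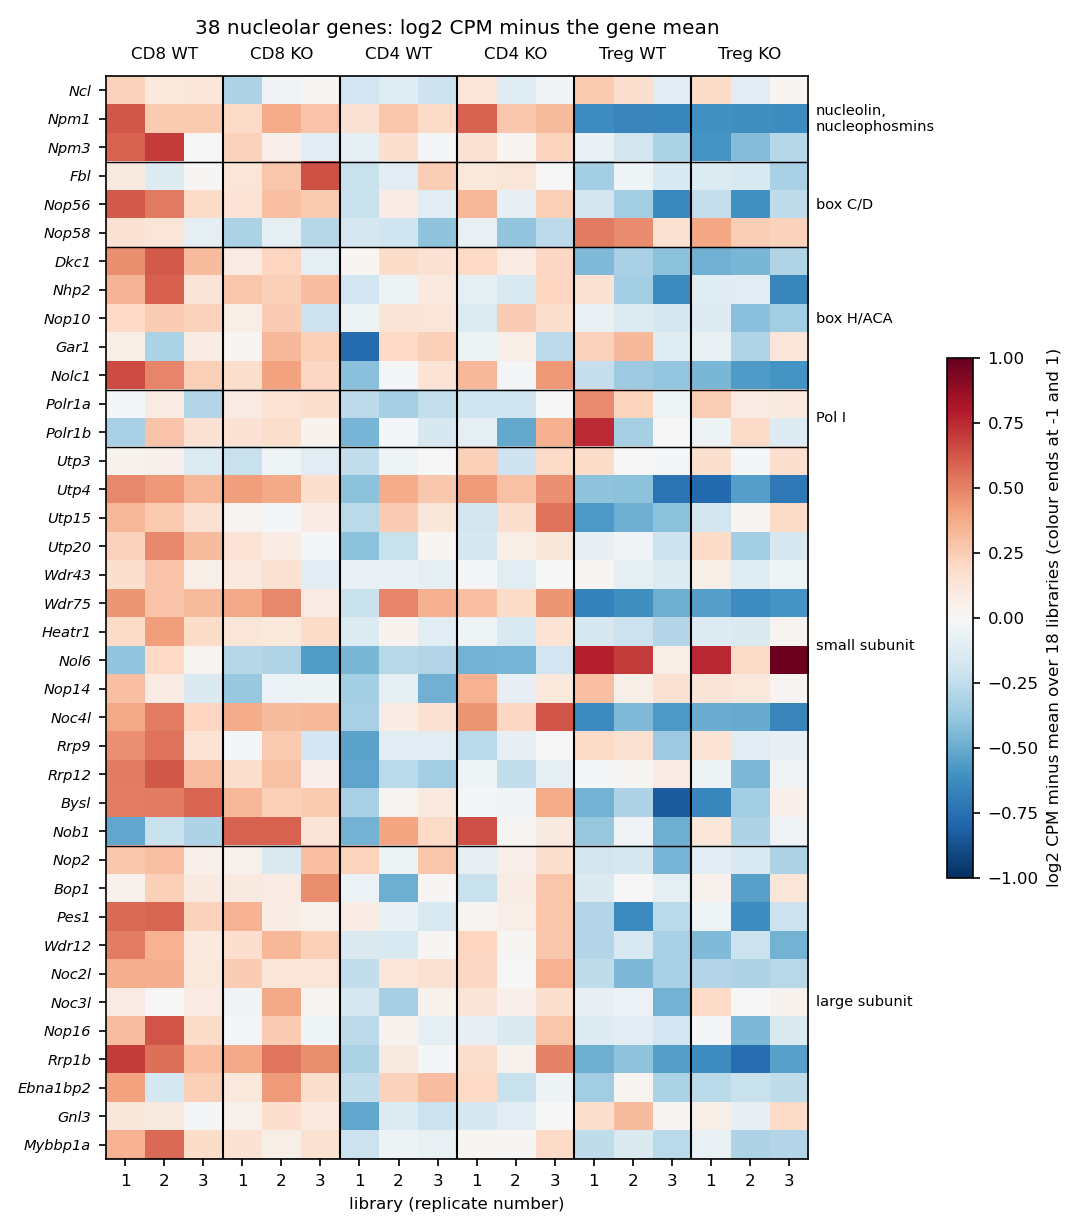
Rows are the 38 nucleolar genes by role and columns the 18 libraries by group, and colour gives log2 CPM minus the mean of the gene over all 18 libraries (red above, blue below, ending at -1 and 1). The CD8 WT columns are mostly red, and the Treg columns are blue for Npm1, Dkc1, Wdr75, Noc4l and Rrp1b but red for Nop58 and Nol6.

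The comparison of KO with WT asks whether loss of Ebi3 goes with a different level of these genes. In CD8 cells none of the 38 genes passed the threshold (edgeR quasi-likelihood test, adjusted p under 0.05), and 0.0% of the 11276 genes tested passed it. By sign, 29 of the 38 were lower and 9 higher in KO, with a median log2 fold change of -0.13 against 0.00 over all genes. At an unadjusted p under 0.05, 10 were lower and 2 higher, where 7.16% of all genes were lower and 7.82% higher. These 12 became 4 without CD8 WT replicate 2, 7 without CD8 KO replicate 1 and 5 without CD8 KO replicate 3, and the median became -0.21 without CD8 WT replicate 3. In 8 genes (Ncl, Nop58, Dkc1, Utp15, Utp20, Rrp12, Bysl and Mybbp1a) all 3 KO libraries lay below all 3 WT libraries, as they did in 8.9% of all genes.

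The member with the smallest p in CD8 cells was Dkc1, the pseudouridine synthase of the box H/ACA particle, which also binds telomerase RNA. Dkc1 gave 795, 882.4 and 715.9 CPM in CD8 WT and 609.5, 667.1 and 540.3 CPM in CD8 KO. Its KO libraries were all lower, yet the log2 fold change of -0.40 (SE 0.10) did not pass the adjustment (edgeR adjusted p = 0.187). Ncl gave 2388, 2195 and 2213 CPM in CD8 WT and 1644, 1991 and 2056 CPM in CD8 KO. Its 2 groups did not overlap, and replicate 1 was the lowest KO library (log2 fold change -0.26, SE 0.09, edgeR adjusted p = 0.247). Npm3, a small relative of nucleophosmin, had a log2 fold change of -0.40 (SE 0.15) and an adjusted p of 0.253 by edgeR. Its levels were 216.8, 233.2 and 144.4 CPM in CD8 WT and 168.5, 148.9 and 133.2 CPM in CD8 KO, so that the groups overlapped through CD8 WT replicate 3. Without that library Dkc1 and Npm3 were called lower, with an edgeR adjusted p of 0.0375 for both. Without a filter on low counts Dkc1, Npm3 and Nob1 were called, with edgeR adjusted p of 0.0108, 0.0469 and 0.0458.

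Against this direction, Nob1 gave 14.1, 17.3 and 16.3 CPM in CD8 WT and 30.3, 30.4 and 22 CPM in CD8 KO. All KO libraries of Nob1 were higher, at a log2 fold change of 0.78 (SE 0.24, edgeR adjusted p = 0.212). Fbl, the methyltransferase of the box C/D particle, was the other gene with an unadjusted p under 0.05 on this side (log2 fold change 0.37, SE 0.15, edgeR adjusted p = 0.275). Its partners Nop56 and Nop58 had log2 fold changes of -0.22 (SE 0.12) and -0.29 (SE 0.11). Polr1a, the catalytic subunit of RNA polymerase I, gave 0.19 (SE 0.12), and among the 14 small subunit factors Nob1 alone had a positive value. Among the 11 large subunit factors Nop16 and Pes1, an assembly factor that works with Bop1 and Wdr12, had the lowest values, at -0.32 (SE 0.15) and -0.31 (SE 0.13). Bop1 and Wdr12 stood at 0.10 (SE 0.16) and -0.09 (SE 0.12).

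In CD4 cells none of the 38 genes passed the threshold either, and 0.0% of the 11276 genes did. By sign the balance was the opposite one. In CD4 KO 34 of the 38 genes were higher and 4 lower (Gar1, Nol6, Nop2 and Ebna1bp2), with a median log2 fold change of 0.17 against 0.00 over all genes. At an unadjusted p under 0.05, 5 were higher and 0 lower, where 3.09% of all genes were higher and 2.66% lower. In 6 genes (Polr1a, Nop14, Noc4l, Rrp12, Noc3l and Mybbp1a) all 3 KO libraries lay above all 3 WT libraries, against 5.29% of all genes.

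The highest values in CD4 cells belonged to Noc4l and Nop14, which work together in the assembly of the small subunit. Noc4l gave 46.6, 61.4 and 64.7 CPM in CD4 WT and 79.2, 67.4 and 90.3 CPM in CD4 KO (log2 fold change 0.45, SE 0.15, edgeR adjusted p = 0.804). Nop14 gave 121, 144 and 109.7 CPM in CD4 WT and 195, 144.8 and 165.2 CPM in CD4 KO (0.43, SE 0.15, edgeR adjusted p = 0.804). For both genes the KO libraries were all higher, Nop14 only just so in replicate 2. Nolc1, a chaperone that carries snoRNPs to the nucleolus, had 0.34 (SE 0.15), Rrp1b, a large subunit factor, 0.31 (SE 0.14), and Wdr12 0.27 (SE 0.12).

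CD4 WT replicate 1 stood apart from its group, with 12070 CPM of B cell markers against 6700 and 8395 in replicates 2 and 3, and with 2555 CPM of 30 S phase genes against 3640 and 3675. Its 38 genes averaged 0.245 log2 units below their mean over all libraries, whereas those of replicates 2 and 3 averaged -0.001 and 0.001. Without this library the median of the 38 genes in CD4 KO against WT was 0.06 in place of 0.17, and 2 genes in place of 5 had an unadjusted p under 0.05. Without CD4 KO replicate 3 the median was 0.095 and the number again 2, and the number was 2 without CD4 KO replicate 1 and 9 without CD4 KO replicate 2.

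The difference between the KO effects of CD4 and CD8 cells was tested as an interaction, and 0.0% of all genes and 0 of the 38 passed the threshold, the smallest adjusted p of the 38 being 0.20. By sign, 27 of the 38 genes were lower in CD8 KO and higher in CD4 KO, and Gar1 and Ebna1bp2 were the reverse. The median difference was 0.31 on the log2 scale, with 33 genes above 0. At an unadjusted p under 0.05 the difference was positive in 13 genes and negative in 0, where 7.75% of all genes were positive and 8.46% negative. The highest values were those of Nop14 (0.68, SE 0.20), Rrp12 (0.56, SE 0.22), Nolc1 (0.55, SE 0.20) and Npm3 (0.51, SE 0.21), while Dkc1 (0.45, SE 0.14) and Ncl (0.43, SE 0.13) were lower in size but among the smallest p. The edgeR adjusted p of these 6 genes lay between 0.20 and 0.239. Without a filter on low counts Ncl, Nop14 and Nolc1 were called, and without CD8 WT replicate 3 Npm3 was.

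B cell markers and S phase genes moved beside these differences. In CD8 cells the 16 B cell markers summed to 5065 to 8480 CPM in WT and 7710 to 10450 in KO, with 15 of 16 higher in KO, and the 11 red cell and platelet markers summed to 638.9 to 1058 CPM in WT and 1003 to 1495 in KO. In CD4 cells 16 of 16 B cell markers were lower in KO (6700 to 12070 CPM in WT and 5961 to 8112 in KO), and the red cell and platelet list summed to 868.4 to 1526 CPM in WT and 761.7 to 1010 in KO. Of 30 S phase genes 27 were lower in CD8 KO and 30 higher in CD4 KO. The 6 genes of the T cell receptor and CD3 list were all lower in CD8 KO and all higher in CD4 KO, with medians of -0.33 and 0.30. Of 14 T cell activation genes 10 were lower in CD8 KO and 11 higher in CD4 KO. Of 6 myeloid markers tested 5 were higher in CD8 KO and 5 lower in CD4 KO. Of 8 genes of the MYC family, which holds MYC, its partners and its antagonists, 5 were higher in CD8 KO (median 0.23) and 6 lower in CD4 KO (median -0.06), and Myc itself stood at 0.40 (SE 0.30) and -0.63 (SE 0.30). None of these list genes was called in either comparison. The part of these cells, of activation and of division in the values of the 38 genes was not tested.

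**Figure D2:**
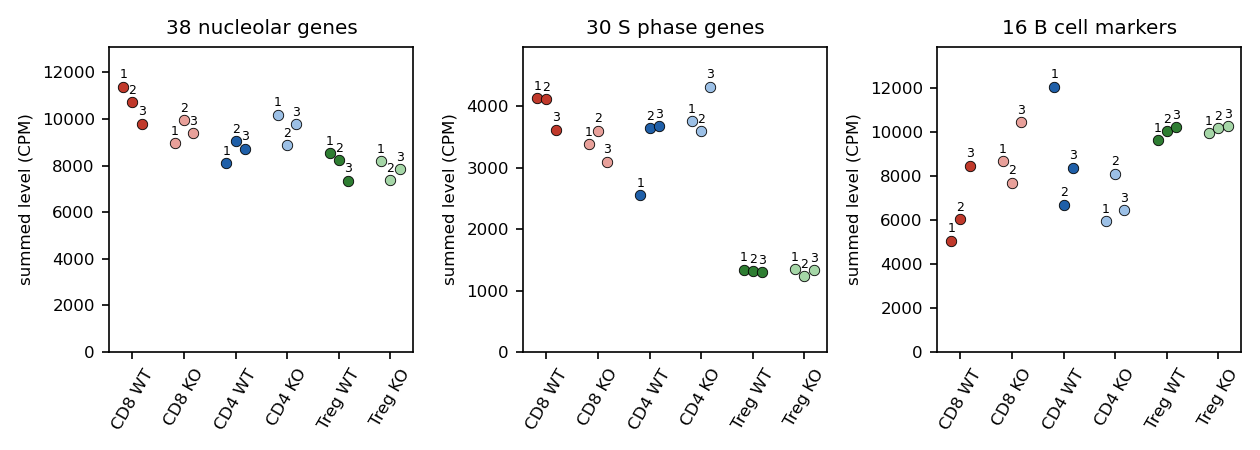
Each point is 1 library, numbered by replicate, and the y axis gives the summed level in CPM of the 38 nucleolar genes (left), 30 S phase genes (middle) and 16 B cell markers (right). CD4 WT replicate 1 is lowest of its cell type for the nucleolar and S phase genes and highest for B cell markers, and the 6 Treg libraries are lowest for S phase genes, at 1232 to 1353 CPM. Ncl and Npm1 weigh most in the sum on the left.

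Between the Treg KO and Treg WT libraries 0.0% of 12820 genes and 0 of the 38 passed the threshold, and the median of the 38 was -0.02, with 17 higher and 21 lower. At an unadjusted p under 0.05, 1 of the 38 was higher and 0 lower (0.764% and 0.733% of all genes). That gene was Utp15, a small subunit factor, with 32.4, 34.4 and 36.3 CPM in Treg WT and 42.6, 48.8 and 55.2 CPM in Treg KO. Its KO libraries were all higher (log2 fold change 0.50, SE 0.24, edgeR adjusted p = 1), in groups of n = 2 samples. Since 4 pairs across the genotype labels did not differ beyond sampling noise, these groups may not be independent.

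CD8 and CD4 cells of the same genotype were compared next. In WT cells 7 of the 38 genes were called higher in CD8 and 0 lower, where 2.25% of all genes were called higher and 1.19% lower. By sign, 35 of the 38 were higher in CD8, with a median log2 fold change of 0.31 against -0.03 over all genes. In 21 of the 38 all 3 CD8 WT libraries lay above all 3 CD4 WT libraries, against 12% of all genes. The 7 called genes were 1 box C/D protein (Nop56), 3 small subunit factors (Utp20, Rrp12 and Bysl) and 3 large subunit factors (Pes1, Rrp1b and Mybbp1a), and no chaperone, box H/ACA protein or polymerase subunit was called. The CD4 WT libraries are the same ones that entered the comparison of CD4 KO with WT, and the CD8 WT libraries those of CD8 KO with WT, so these results are not independent of each other.

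Rrp12, which takes part in the export of pre-ribosomal particles from the nucleus, had the largest difference. It gave 54.2, 58.1 and 47 CPM in CD8 WT and 26.2, 31.4 and 29.8 CPM in CD4 WT (53.1 ± 5.62 and 29.2 ± 2.65 CPM, SD, n = 3 each). The lowest CD8 library was well above the highest CD4 library, at a log2 fold change of 0.84 (SE 0.15, edgeR adjusted p = 0.00241). Rrp12 was the only 1 of the 7 that was called in all 15 alternatives. Bysl, an assembly factor of the small subunit, gave 84.8, 85 and 89 CPM in CD8 WT and 47.4, 60.4 and 63.6 CPM in CD4 WT (0.57, SE 0.14, edgeR adjusted p = 0.0247). Rrp1b gave 197.7, 178.2 and 149.8 CPM in CD8 WT and 97.6, 129.5 and 120.9 CPM in CD4 WT (0.57, SE 0.14, edgeR adjusted p = 0.022). In both genes CD4 WT replicate 1 was the lowest library.

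Utp20, a large scaffold of the small subunit precursor, gave 73.8, 88.1 and 78.6 CPM in CD8 WT and 47.4, 54.1 and 63.6 CPM in CD4 WT (0.52, SE 0.14, edgeR adjusted p = 0.0374). Nop56 gave 432.6, 406.8 and 324.3 CPM in CD8 WT and 243.4, 298.2 and 263.2 CPM in CD4 WT (0.52, SE 0.13, edgeR adjusted p = 0.023). Pes1 gave 124, 125.8 and 98.4 CPM in CD8 WT and 88.2, 80.2 and 75.4 CPM in CD4 WT (0.51, SE 0.13, edgeR adjusted p = 0.0348). For these 3 genes the groups did not overlap, and CD8 WT replicate 3 was the lowest CD8 library of Nop56 and Pes1. Mybbp1a, a nucleolar protein that binds MYB, gave 302.1, 352.9 and 270.5 CPM in CD8 WT and 204.7, 230 and 226.1 CPM in CD4 WT (0.47, SE 0.11, edgeR adjusted p = 0.0153). Its groups were also apart. Nolc1 (0.53, SE 0.15, adjusted p = 0.0511) and Rrp9 (0.60, SE 0.17, adjusted p = 0.0539), a protein of the U3 snoRNP, just missed the threshold by edgeR.

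The number of calls rested on single libraries. It was 1 without CD8 WT replicate 2, 2 without CD8 WT replicate 1, 14 without CD8 WT replicate 3, 3 without CD4 WT replicate 1 and 4 without CD4 WT replicate 3, and 1 when only these 6 libraries were fitted. Beside these values, the 16 B cell markers were all lower in CD8 WT than in CD4 WT by sign, with a median of -0.49, and 26 of 30 S phase genes were higher, with a median of 0.24. The 8 MYC family genes were all lower in CD8 WT by sign (median -0.29), with Max and Mxd1 called and Myc at -0.47 (SE 0.30, edgeR adjusted p = 0.419). Of 14 T cell activation genes 4 were called higher and 1 lower.

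In KO cells 0 of the 38 genes were called between CD8 and CD4, whereas 3.2% of all genes were called. The median of the 38 was 0.02 (0.01 over all genes), with 22 higher and 16 lower. At an unadjusted p under 0.05, 0 were higher (6.16% of all genes) and 1 was lower (8.05%), namely Nop14 (-0.31, SE 0.14). In 5 genes (Fbl, Nhp2, Polr1a, Rrp12 and Gnl3) all 3 CD8 KO libraries lay above all 3 CD4 KO libraries, against 10.7% of all genes. Rrp12 had a log2 fold change of 0.28 (SE 0.15, edgeR adjusted p = 0.429), with 42.8, 46.4 and 39.3 CPM in CD8 KO and 36.7, 31.9 and 35.6 in CD4 KO. Here the 16 B cell markers were all higher in CD8 by sign (median 0.40) and 27 of 30 S phase genes lower (median -0.21), the reverse of WT. The change of this difference with genotype is the interaction given above, which no gene passed.

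**Figure D3:**
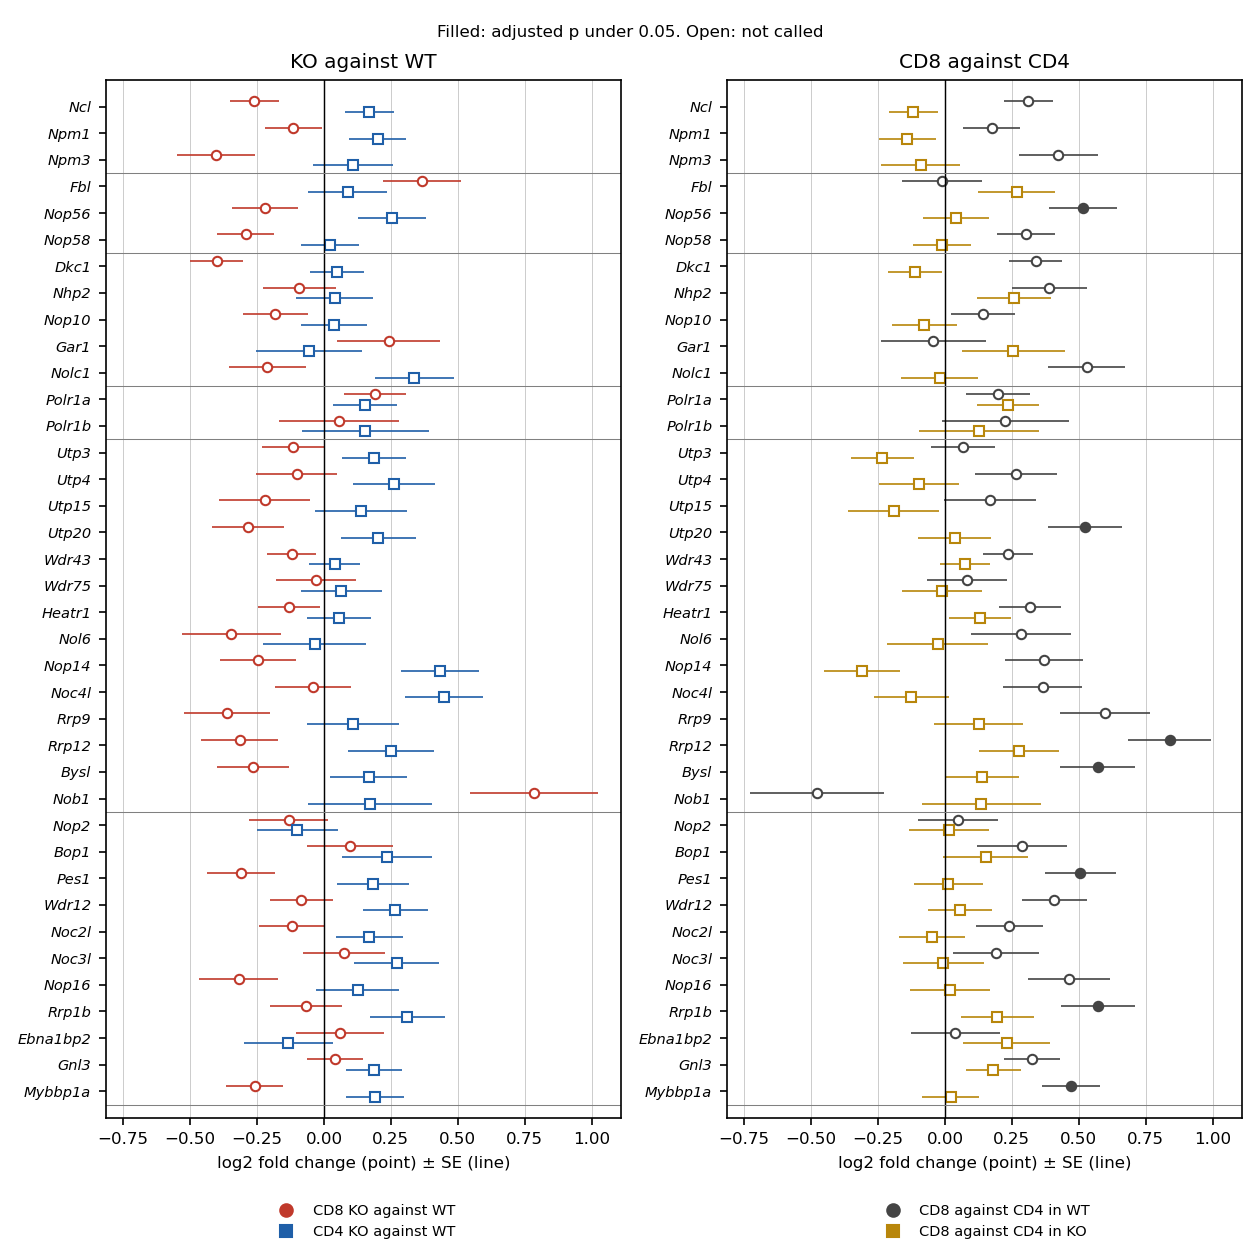
Each point is the log2 fold change of 1 of the 38 genes and each line its SE, for KO against WT in CD8 and CD4 cells (left) and for CD8 against CD4 in WT and KO (right), with filled points at an adjusted p under 0.05. On the left no point is filled, and CD8 points lie mostly below 0 and CD4 points above it, while on the right the 7 filled points are all in WT.

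The libraries labelled Treg differed from the others more than the genotypes did. Against CD4 WT, Treg WT had 9 of the 38 genes called lower and 5 higher (16.5% and 22.9% of all genes). Against CD4 KO, Treg KO had 14 called lower and 2 higher (18.6% and 25.7% of all genes). Against CD8 WT, Treg WT had 23 called lower and 1 higher (19.9% and 26.8% of all genes), and against CD8 KO, Treg KO had 18 called lower and 2 higher (17.3% and 23.3% of all genes). The medians of the 38 were -0.17, -0.24, -0.48 and -0.37 in this order, and those of all genes 0.05, 0.10, 0.10 and 0.04. With total counts in place of trimmed means the medians of all genes became -0.06, 0.01, -0.01 and -0.04. Against CD4 WT the split of calls moved with the scaling, to 6 lower and 6 higher under upper quartiles and 13 lower and 4 higher under total counts, and against CD8 WT it was 18 lower and 3 higher under upper quartiles. Without CD4 WT replicate 3 or without Treg WT replicate 3 the calls against CD4 WT were 8 in place of 14, and without Treg KO replicate 2 those against CD8 KO were 13 in place of 20. The median against CD4 KO was -0.14 without CD4 KO replicate 3. No called gene changed sign under any alternative. The 4 comparisons share the Treg libraries in pairs, so their counts are not independent. Since 4 pairs across the Treg genotype labels did not differ beyond sampling noise, the WT and KO comparisons may not be independent either. In all, 25 of the 38 were called lower at least once, 5 higher at least once, 0 both ways, and 8 (Bop1, Gar1, Ncl, Nob1, Noc3l, Polr1b, Rrp9 and Utp3) in none. The share of all genes called at least once is not given here, so these counts only describe the 38.

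The genes called lower in all 4 Treg comparisons were Npm1, Dkc1, Wdr75, Utp4, Noc4l, Noc2l and Rrp1b. The share of all genes called lower in all 4 is not given here. Npm1 gave 1096, 1073 and 1077 CPM in Treg WT and 1115, 1107 and 1102 CPM in Treg KO. It gave 2608, 2030 and 2030 CPM in CD8 WT, 1931, 2189 and 2060 in CD8 KO, 1879, 2052 and 1931 in CD4 WT and 2553, 2044 and 2113 in CD4 KO. The highest Treg library of Npm1 was thus far below the lowest of the other 12, and the Treg libraries hardly differed among themselves. Its log2 fold changes were -0.85 (SE 0.11) against CD4 WT, -1.01 (SE 0.11) against CD4 KO, -1.04 (SE 0.11) against CD8 WT and -0.89 (SE 0.11) against CD8 KO, with edgeR adjusted p from 2.43e-08 to 7.42e-07.

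Dkc1 gave 423.8, 459.7 and 432.9 CPM in Treg WT and 412.1, 419.4 and 467.7 in Treg KO, against 540.3 to 882.4 CPM in the other 12 libraries. Its ranges were apart, with log2 fold changes from -0.86 (SE 0.11, against CD8 WT) to -0.49 (SE 0.11, against CD8 KO). Wdr75, a small subunit factor that also acts in transcription by RNA polymerase I, gave 64.8 to 73.6 CPM in the Treg libraries and 88.9 to 145 in the others, and Noc4l gave 36.8 to 43 and 46.6 to 90.3 CPM. Noc2l, a factor of the large subunit, gave 97.1 to 111.5 CPM in the Treg libraries and 112.2 to 170.6 in the others, and Rrp1b 71.8 to 92.2 and 97.6 to 197.7 CPM. In these genes the Treg libraries were all below the other 12, by the narrowest gap in Noc2l. Rrp1b had the largest log2 fold change against CD8 KO, at -1.12 (SE 0.16, edgeR adjusted p = 2.92e-06). Utp4, a small subunit factor, touched the others through CD4 WT replicate 1, with 40.1 to 51.8 CPM in the Treg libraries, 51.7 CPM in that library and 76.6 to 95.9 CPM in the other 11. In all, 6 of the 38 genes had the 6 Treg libraries below all 12 others (11.3% of all genes) and 1 had them above (17.9%).

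Nop58 was that 1 gene and was called higher in all 4 comparisons, although its partner in the same snoRNP, Nop56, was called lower in 3. Nop58 gave 651.9, 632.9 and 506.5 CPM in Treg WT and 595.7, 540.9 and 532.8 in Treg KO, against 344.2 to 501.9 CPM in the other 12 libraries. Its log2 fold changes were 0.60 (SE 0.12) and 0.52 (SE 0.12) against CD4 WT and CD4 KO, and 0.28 (SE 0.12) and 0.51 (SE 0.12) against CD8 WT and CD8 KO. The call against CD8 WT (edgeR adjusted p = 0.0494) held in 5 of 15 alternatives, with adjusted p up to 0.435, and the other 3 calls held in all. Nop56 gave 250.1, 222.5 and 181.6 CPM in Treg WT and 240.7, 186.7 and 238.2 in Treg KO, which overlapped with the CD4 WT libraries only. Its log2 fold changes were -0.57 (SE 0.15) against CD4 KO, -0.88 (SE 0.15) against CD8 WT and -0.63 (SE 0.15) against CD8 KO, and -0.35 (SE 0.15, edgeR adjusted p = 0.0645) against CD4 WT. The ratio of Nop58 to Nop56 counts was 2.237 to 2.897 in the Treg libraries and 1.096 to 1.667 in the other 12. The same held for the chaperones, where the ratio of Ncl to Npm1 was 1.715 to 2.23 in the Treg libraries and 0.851 to 1.09 in the others. Both ratios were formed after the levels had been seen and carry no test. Fbl, the third box C/D protein, was called lower only against CD8 KO (-0.55, SE 0.17, edgeR adjusted p = 0.00869).

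**Figure D4:**
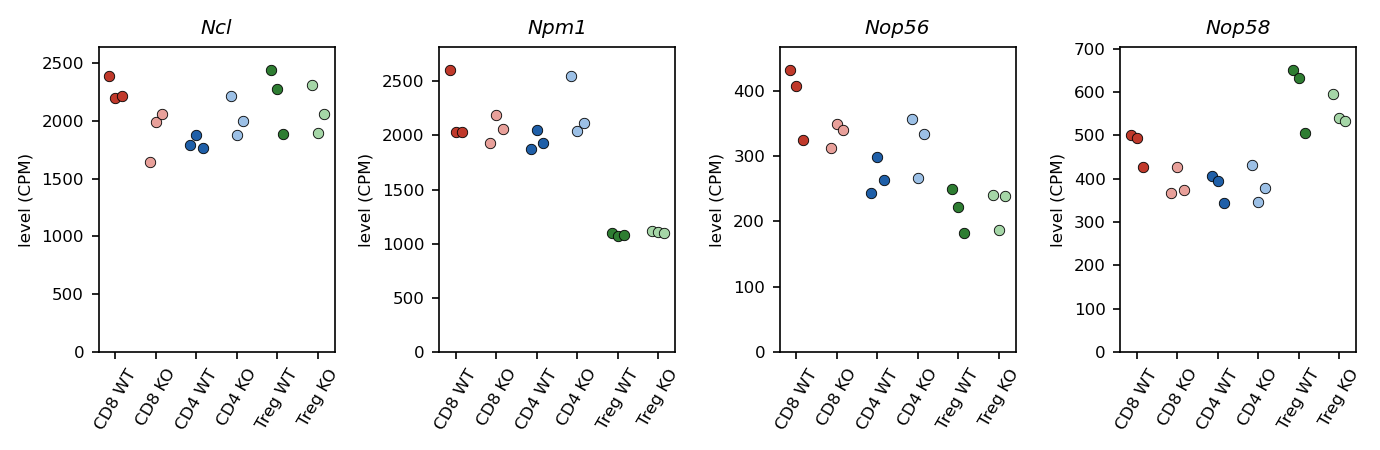
Levels in CPM of Ncl, Npm1, Nop56 and Nop58, with 1 point per library by group and each y axis starting at 0. Npm1 separates the 6 Treg libraries (1073 to 1115 CPM) from the other 12 (1879 to 2608 CPM) while Ncl does not, and Nop58 stands above all others in Treg while Nop56 stands low.

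The other genes called higher in Treg were Nol6, Nop14, Polr1a and Gnl3. Nol6, a structural protein of the small subunit precursor, gave 53.1, 50.4 and 32.5 CPM in Treg WT and 52.3, 35.4 and 61.4 in Treg KO, against 21.1 to 35.6 CPM in the other 12. It varied among the Treg libraries, overlapped with CD8 WT alone, and was called against CD4 WT (0.81, SE 0.23, edgeR adjusted p = 0.00645), CD4 KO (0.99, SE 0.22, edgeR adjusted p = 0.000721) and CD8 KO (0.99, SE 0.23, edgeR adjusted p = 0.000828). Against CD4 WT alone, Nop14 (0.46, SE 0.15), Polr1a (0.46, SE 0.14) and Gnl3 (nucleostemin, a nucleolar GTPase, 0.42, SE 0.12) were called higher, with edgeR adjusted p of 0.0152, 0.0102 and 0.00427. Gnl3 gave 395.3, 436.3 and 356.5 CPM in Treg WT and 244.8, 318.9 and 302.6 in CD4 WT. Its Treg libraries were all above, although those of CD8 WT (345.6 to 379.9 CPM) overlapped with them.

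The remaining called genes moved mostly against CD8 cells. In both genotypes 16 genes were called lower against CD8 and 7 against CD4. The share of all genes called lower in both genotypes is not given here, so these counts only describe the 38. In single comparisons 19.9% (WT) and 17.3% (KO) of all genes were called lower against CD8, and 16.5% and 18.6% against CD4. Of the 38, those lower against CD8 in both genotypes but not among the 7 were Nop56, Npm3, Nhp2, Nop10, Nolc1, Bysl, Pes1, Wdr12 and Mybbp1a. Bysl had the largest of these values against CD8 WT, at -1.10 (SE 0.18, edgeR adjusted p = 1.19e-05), with 42.8, 47.9 and 33.5 CPM in Treg WT against 84.8 to 89 CPM in CD8 WT. Nolc1 stood at -0.80 (SE 0.15) against CD8 WT and -0.80 (SE 0.16) against CD8 KO, with 143.6 to 185.3 CPM in the Treg libraries and 244.9 to 340.8 in CD8. Pes1 and Wdr12 were at -0.83 (SE 0.16) and -0.59 (SE 0.14) against CD8 WT, and their partner Bop1 at -0.21 (SE 0.20, not called). Of the box H/ACA proteins Dkc1, Nhp2 and Nop10 were called lower against both CD8 groups, with Nhp2 at -0.67 (SE 0.18) and Nop10 at -0.36 (SE 0.13) against CD8 WT. Gar1 of the same particle was not, at 0.16 (SE 0.22) and -0.31 (SE 0.22). The polymerase subunits Polr1a and Polr1b were called lower in none of the 4 comparisons.

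**Figure D5:**
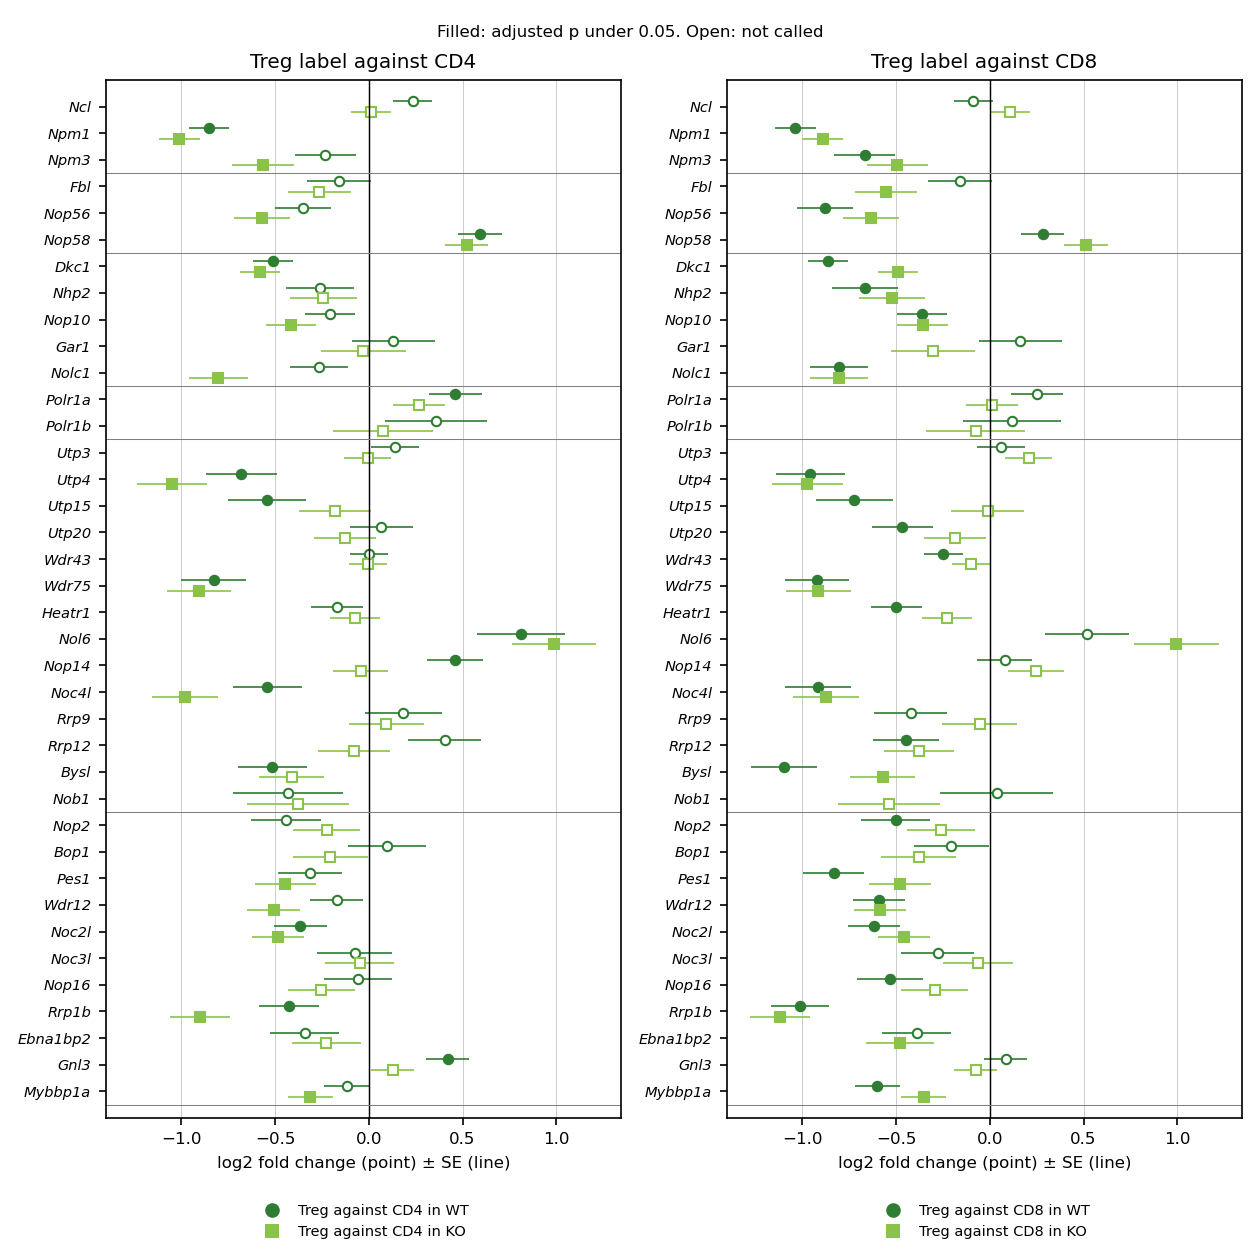
Each point is the log2 fold change of 1 of the 38 genes with its SE, for the Treg libraries against CD4 (left) and CD8 (right) of the same genotype, with filled points at an adjusted p under 0.05. Most filled points lie below 0, with Npm1, Dkc1, Wdr75, Utp4, Noc4l, Noc2l and Rrp1b filled in all 4 comparisons, and Nop58 is filled above 0 in all 4.

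Genes of the same pathway outside the 38 were counted from lists of 129 genes, of which 123 were matched and tested. In CD8 WT against CD4 WT 6 of them were called higher and 0 lower (2.25% and 1.19% of all genes). Among the 6 were the helicases Ddx21 (0.42, SE 0.11, edgeR adjusted p = 0.0358) and Ddx27 (0.43, SE 0.11, edgeR adjusted p = 0.0259) and the small subunit factor Utp23 (0.63, SE 0.13, edgeR adjusted p = 0.00674). Against CD4 WT the Treg libraries had 29 of the 123 called lower and 23 higher, against CD4 KO 44 and 14, against CD8 WT 54 and 14, and against CD8 KO 43 and 13. Of all genes 16.5%, 18.6%, 19.9% and 17.3% were called lower in this order, and 22.9%, 25.7%, 26.8% and 23.3% higher. No gene of the 123 was called between KO and WT in CD8, CD4 or Treg. Rsl1d1, a nucleolar protein, was called lower in all 4 Treg comparisons with log2 fold changes of -1.64 to -1.38, and so was Mphosph6, which works with the RNA exosome, at -1.78 to -1.18. On the other side, Mdn1, a large AAA ATPase that remodels large subunit precursors, was called higher in all 4, at 1.11 to 1.44. Polr1c and Polr1d, subunits shared by RNA polymerases I and III, were called lower in all 4 comparisons (-0.79 to -0.44), and Ubtf, which activates RNA polymerase I, was called higher in all 4 (0.44 to 0.74).

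Host genes of small nucleolar RNAs, which carry these RNAs in their introns, tended the other way. Of 9 tested, 5, 4, 4 and 4 were called higher in Treg than in CD4 WT, CD4 KO, CD8 WT and CD8 KO, and 0, 0, 1 and 0 lower, with Gas5 and Snhg1 called higher in all 4. In the same order 22.9%, 25.7%, 26.8% and 23.3% of all genes were called higher. Of the 38 genes, Ncl, Nop56, Nop58, Wdr43 and Gnl3 also hold a named small nucleolar RNA gene on their own strand. Of these 5, Nop58 was called higher in all 4 comparisons, Gnl3 higher in 1, Nop56 lower in 3, Wdr43 lower in 1 and Ncl in none.

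The 78 cytosolic ribosomal protein genes were called higher in Treg for 34, 31, 48 and 30 genes in the same order of comparisons, and lower for 6, 11, 5 and 11. In these comparisons 22.9 to 26.8% of all genes were called higher and 16.5 to 19.9% lower. Of 30 S phase genes 27, 29, 29 and 28 were called lower and 1, 0, 0 and 0 higher, with medians from -1.69 to -1.51. Myc was at 13.5 to 29.8 CPM in the Treg libraries and 22 to 69.2 CPM in the others, and was called lower against CD4 WT (-1.13, SE 0.37, edgeR adjusted p = 0.0213) and CD8 KO (-1.25, SE 0.38, edgeR adjusted p = 0.0125). It was not called against CD4 KO (-0.68, SE 0.39) or CD8 WT (-0.66, SE 0.38). Of 14 T cell activation genes 6, 9, 9 and 9 were called lower and 2, 2, 2 and 3 higher, with summed levels of 1269 to 1534 CPM in the Treg libraries and 1923 to 3346 in the others. Of 8 myeloid and dendritic cell markers tested 4, 4, 4 and 2 were called higher and 0 lower, with 112.8 to 126.4 CPM over the whole list in the Treg libraries and 57.2 to 115 in the others. B cell markers summed to 9653 to 10270 CPM in the Treg libraries, and 2, 8, 9 and 3 of 16 were called higher in the same order of comparisons. The part of cell division, of activation, of B and myeloid cells and of the lower depth of the Treg libraries in the values of the 38 genes was not tested.

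In 17 of the 38 genes an exon overlaps an exon of a gene on the other strand, among them Dkc1, Nop56, Rrp1b, Noc2l, Bysl, Pes1, Gnl3, Polr1a, Nop14 and Mybbp1a. Since the strand setting of the counting is unknown here, this overlap makes the values of these 17 genes less certain. Npm1, Ncl, Nop58, Rrp12, Utp20, Wdr75, Noc4l and Nol6 have no such overlap. Exons of Ncl and Nop58, however, overlap exons of other genes on their own strand, as do exons of Nop56 and Gnl3. How tags that map to several places were counted is not stated.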

How the data were processed

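What the authors deposited is a table of raw counts, 1 row per Ensembl gene and 1 column for each of 18 libraries, made from 3' tags with unique molecular identifiers. Tools and builds named in the submitters' processing notes are STAR 2.5.3a, featureCounts, Subread 2.0.0, UMI-tools 1.0.0, cutadapt 2.10, FastQC and GRCm38 (mm10). Order, settings, strand and annotation release are not stated there. Counting at the 3' end says nothing about other exons, and floors cover counting error only.

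Tests were run with edgeR 4.0.16 in R 4.3.3 (filterByExpr with a minimum count of 10, trimmed mean of M-values, glmQLFit robust, glmQLFTest) on all genes, with Benjamini-Hochberg adjustment and a threshold of 0.05. CD4 and CD8 comparisons used those 12 libraries (11276 genes, 8 residual degrees of freedom, common dispersion 0.0121). Comparisons with Treg used all groups, with the near-identical Treg libraries summed (16 samples, 12820 genes, 10 degrees of freedom, common dispersion 0.0106). Such pairs were found by chi-square tests on genes holding 20 or more counts in a pair. SE is the absolute log2 fold change over the root of F. On simulated counts 23.2% of 1.5-fold and 66% of 2-fold changes were recovered for CD8 KO against WT, and 20% and 59.4% for Treg against CD4 in WT. The changed genes numbered 99 and 100 in the former and 90 and 96 in the latter. False calls numbered 4 at each fold in the former and 5 at each fold in the latter.

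The 38 genes, the lists and the tests were chosen with earlier results of these data known. Values in every library go to genes called in a comparison and, per role, to the gene with the highest level or the largest change. Of other lists up to 4 called genes are named, and Ebi3, Myc, Cd4, Cd8a, Cd8b1, Foxp3 and the marker lists may always be. Noc4l, Nop14 and the partners of called genes were picked after their values were seen. NK cell markers summed to 7.29 to 121.7 CPM. Alternatives were other scalings, no filter, DESeq2 1.42.0, limma-voom (limma 3.58.1), other sets of libraries, a replicate block and leaving out each library.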

Additional observations from a re-analysis of the deposited data

How the results depend on the processing

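Calls among the 38 genes depended on the filter and on single libraries. Without a filter on low counts the number of called genes was 3 for CD8 KO against WT (Dkc1, Nob1 and Npm3; 0 with the filter), 16 for CD8 against CD4 in WT (7 with it) and 3 for the difference of the KO effects (0 with it). Fitting all 18 libraries gave 15 calls for CD8 against CD4 in WT, and fitting only the libraries compared gave 1 there and 9 for Treg against CD4 in WT (14 in the main analysis). Leaving out 1 library at a time gave 0 to 2 calls for CD8 KO against WT, 1 to 14 for CD8 against CD4 in WT, 8 to 17 for Treg against CD4 in WT, 13 to 19 for Treg against CD8 in KO (20 with all libraries) and 0 to 1 for the difference of the KO effects. The 2 calls for CD8 KO against WT (Dkc1 and Npm3) and the 1 for the difference (Npm3) came without CD8 WT replicate 3, the 8 without CD4 WT replicate 3 or Treg WT replicate 3, and the 13 without Treg KO replicate 2. The cause was not tested. For these alternatives the share of all genes called is not given, here or above, so the counts only describe the 38. CD4 KO against WT, Treg KO against WT and CD8 against CD4 in KO gave 0 calls among the 38 in all 15 alternatives each, DESeq2 and limma-voom included. Over all genes DESeq2 called 25 for CD8 KO against WT and 1 for CD4 KO against WT, where edgeR called 0. The replicate numbers did not pair the libraries (correlations of deviations from -0.34 to 0.307, own number highest in 13 of 45), and a replicate block gave 6 in place of 7 calls for CD8 against CD4 in WT and changed no count of calls by over 1.5 times. The genes with an unadjusted p under 0.05 in CD4 KO against WT went from 5 to 3 under the block. In the simulation of CD8 KO against WT most 1.5-fold changes were missed at this depth and spread. CD4 KO and Treg KO against WT were not simulated.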
